A study of Mus musculus with 13 samples.

Results

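The 40 genes described here encode splicing factors of 3 families in the mouse: 11 SR proteins, 20 hnRNPs and 9 subunits of the SF3a and SF3b complexes. They were chosen by symbol, as every protein-coding gene named Srsf, Hnrnp, Sf3a or Sf3b with the number or letters that follow, out of 37785 genes counted in each library. The families were proposed with CPM (read counts relative to the library's total) across the 4 ages in view, so their levels and their calls across ages are a description of the members and support nothing beyond it. All 40 were counted and all 40 passed the filter on low counts, Srsf12 being the single member with no count in a sample. Cells of C57BL/6 mouse brain were enriched with magnetic microbeads against Pdgfra, a surface receptor of oligodendrocyte precursor cells (OPCs), and their total RNA was sequenced. The groups were E16 embryos (3 mice), P12 pups (3), young adults titled P80 (3, with 80 or 81 days in the age field) and older adults titled P310 (4, with slightly lower ages in that field). All were wild type, the labels name no treatment, and myelin removal beads were used before the enrichment at P80 and P310 but not at E16 or P12, so that step and adult age cannot be told apart.

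Splicing removes introns from pre-mRNA, and these families act at its earliest choices. SR proteins have RNA recognition motifs and a tail rich in arginine and serine, bind exonic sequences and recruit the spliceosome, while hnRNPs coat nascent transcripts and often oppose exon inclusion. SF3a and SF3b are parts of the U2 snRNP and hold it at the branch point of the intron. In brain development, regulated exons change as progenitors leave the cell cycle and as neurons and glia mature, and the amounts of SR proteins and hnRNPs are known to affect which exons are kept.

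The sequences just upstream of 5 members are shown because these genes stand at opposite ends of the values that follow: Hnrnpa1 and Srsf7 had large differences between E16 and later ages, Srsf5 and Hnrnpf had the smallest in their families, and Sf3b2 was the most abundant SF3 subunit. Each run is the 250 bases before the RefSeq start on GRCm38.p6, 5′ to 3′ on the gene's own strand, and capitals mark the letters CCAAT of the box of that name, the GC box as GGGCGG and the site of ETS factors as CCGGAAG, each on either strand. The windows are chr15:103240147-103240396 on the plus strand for Hnrnpa1, chr17:80207306-80207555 on the minus strand for Srsf7, chr12:80945249-80945498 on the plus strand for Srsf5, chr6:117900090-117900339 on the plus strand for Hnrnpf and chr19:5295458-5295707 on the minus strand for Sf3b2.
Hnrnpa1: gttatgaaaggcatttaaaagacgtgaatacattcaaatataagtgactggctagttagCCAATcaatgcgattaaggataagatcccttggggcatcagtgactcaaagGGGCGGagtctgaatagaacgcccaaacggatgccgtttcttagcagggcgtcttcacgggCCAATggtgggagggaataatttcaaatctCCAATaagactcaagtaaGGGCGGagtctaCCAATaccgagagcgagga
Srsf7: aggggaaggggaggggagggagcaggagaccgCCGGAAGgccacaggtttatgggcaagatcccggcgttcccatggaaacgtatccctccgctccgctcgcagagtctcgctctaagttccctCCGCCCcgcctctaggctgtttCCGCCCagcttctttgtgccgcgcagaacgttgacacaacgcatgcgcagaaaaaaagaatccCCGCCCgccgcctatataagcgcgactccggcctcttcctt
Srsf5: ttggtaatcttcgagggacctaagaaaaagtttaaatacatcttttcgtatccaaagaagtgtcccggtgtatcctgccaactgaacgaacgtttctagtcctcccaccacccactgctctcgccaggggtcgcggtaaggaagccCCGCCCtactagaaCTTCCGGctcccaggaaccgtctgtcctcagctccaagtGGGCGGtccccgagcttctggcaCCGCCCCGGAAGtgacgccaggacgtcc
Hnrnpf: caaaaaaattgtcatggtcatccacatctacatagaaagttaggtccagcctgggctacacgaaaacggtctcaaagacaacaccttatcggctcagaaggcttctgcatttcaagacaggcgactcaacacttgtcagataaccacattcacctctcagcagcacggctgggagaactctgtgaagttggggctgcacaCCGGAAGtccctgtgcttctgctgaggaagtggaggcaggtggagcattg
Sf3b2: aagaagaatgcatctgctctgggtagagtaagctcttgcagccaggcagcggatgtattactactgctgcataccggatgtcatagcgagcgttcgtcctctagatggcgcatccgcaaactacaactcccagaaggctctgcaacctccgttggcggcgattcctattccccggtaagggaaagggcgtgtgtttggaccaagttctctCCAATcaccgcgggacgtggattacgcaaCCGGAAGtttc
The Hnrnpa1 window held 4 CCAAT boxes and 2 GC boxes. That of Srsf7 held 3 GC boxes and 1 ETS site. Srsf5 had 3 GC boxes and 2 ETS sites, and Hnrnpf had neither of the first kinds and 1 ETS site. In Sf3b2, 1 CCAAT box and 1 ETS site were found.

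Of the 40 members, 36 had a promoter in the RefSeq table, and Hnrnpll, Hnrnpul2, Sf3b4 and Sf3b5 had none there. CCGGAAG stood in 12 of the 36 (33.3%), against 11.8% of 12577 coding genes tested here with a window of the same length. By family, it was in 6 of 7 SF3 windows, 4 of 11 SR windows and 2 of 18 hnRNP windows. CCAAT was in 17 members (47.2%, against 35.8%), of which 12 were hnRNPs, 3 SR proteins and 2 SF3 subunits. GGGCGG was in 27 (75.0%, against 54.6%). The TATA box, searched as TATAAA, was in 4 members, 11.1% against 7.7%. TTTCCCGC, a form of the E2F site, was in 3 (Srsf1, Srsf10 and Hnrnpul1), 8.3% against 1.5%. GCGCATGC (NRF1) was in 1 (2.8%, against 3.9%), CACGTG (E-box) in 2 (5.6%, against 7.7%) and TGACGTCA (CRE) in 0 (0%, against 2.5%). The members' windows had a median GC content of 62.6%, against 58.8%, and motifs made of G and C are more frequent in such sequence. All motifs were searched on both strands, without regard to overlap between motifs, and a match is a match of letters only.

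The 13 libraries held 8669521 to 25810455 counts. Over 16120 coding genes, the chi-square of P12 replicates 2 and 3 was 2.355 per degree of freedom, close to sampling noise, against 17.92 to 185.2 for the other 14 pairs of libraries of 1 age. These libraries were summed and counted as 1 sample, called P12 replicate 2-3, which left n = 2 at P12 and 12 samples in all. Values are CPM scaled by TMM, a method that sets libraries on a common scale, and are given as mean ± SD. Of 10 OPC markers, 9 had counts at E16, where their sum was 342 to 406 CPM, but Ptprz1 made up 284 to 340.4 of it and Sox10 stood at 1.58 to 4.54. Neu4 was at 0 in the 3 E16 samples. Pdgfra itself was at 25.1 to 38.4 CPM at E16, 46.7 to 93.6 at P12, 17.2 to 53.4 at P80 and 13.7 to 68.8 at P310. OPC is thus the name of the enrichment here, and each value is of all the cells that the beads held. In bulk RNA, fewer cells of a type and less RNA per cell cannot be told apart.

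Summed over their members, all 3 families were highest in the E16 samples and lower at the 3 later ages. The hnRNPs came to 9740, 9077 and 10650 CPM in the 3 E16 samples and to 3668 and 3029 at P12. At P80 they came to 2651, 2524 and 2778, and at P310 to 2365, 2902, 2801 and 2827. Every E16 sample thus lay above every later one, both P12 samples lay above the adult ones, and the P80 and P310 ranges overlapped. For SR proteins the E16 sum was 1549 ± 243 CPM over 3 samples, the P12 sum 807 ± 45.6 over 2, the P80 sum 775 ± 68.8 over 3 and the P310 sum 827 ± 103 over 4. SF3 subunits summed to 1461 ± 65.0, 765 ± 134, 645 ± 72.7 and 652 ± 53.0 CPM at the same ages. The 40 members together came to 12830 ± 1048 CPM at E16, against 4921 ± 540.3 at P12, 4071 ± 111 at P80 and 4202 ± 333 at P310.

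**Figure D1:**
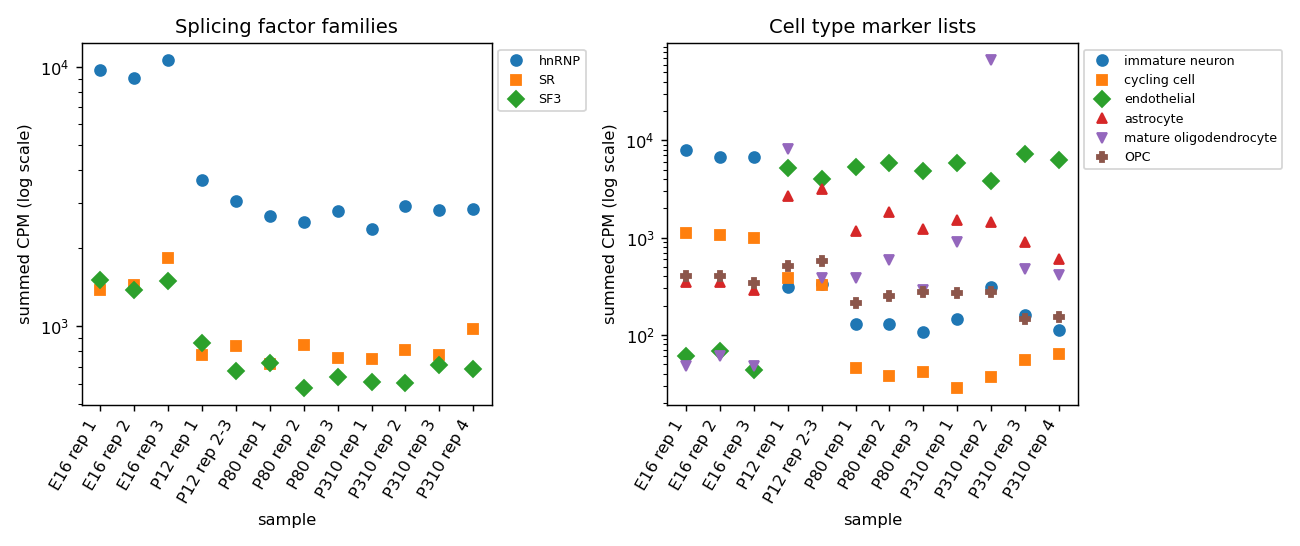
Summed CPM (log scale) of the 3 splicing factor families (left) and of 6 cell type marker lists (right) in each of 12 samples, 1 point per sample and list. The 3 families lie highest in the E16 samples, where the immature neuron and cycling cell lists are also highest and the endothelial list is lowest.

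Several lists of markers of other cells also stood apart between E16 and the later ages, and others did not. The 12 immature neuron markers, all detected, summed to 6744 to 7925 CPM at E16, 307.3 to 332 at P12, 107 to 130.1 at P80 and 111 to 307.3 at P310. The 10 markers of cycling cells summed to 994 to 1116, 323 to 384, 38.2 to 46.1 and 28.2 to 63.2 CPM at these ages, and 3 of them had no count in any P80 sample (Cdk1, Aurkb and Bub1) and 1 in any P310 sample (Bub1). The 10 endothelial markers went the other way, from 43.3 to 68.5 CPM at E16 to between 3835 and 7235 at the later ages. The 8 astrocyte markers summed to 289 to 349 at E16 and 2702 to 3140 at P12, and the 8 microglia markers to 78.3 to 114 and 866 to 917. The 7 mural markers summed to 116 to 185 and 737 to 1022. The 8 mature oligodendrocyte markers summed to 47.4 to 60.4 CPM at E16, and stood apart in P12 replicate 1 (8044) and P310 replicate 2 (67210). Mature neuron markers (10) summed to 358 to 403 at E16 and 31.2 to 255 at P12, fibroblast markers (5) to 325 to 345 and 673 to 1238, and erythroid markers (6) to 802 to 4306 and 3202 to 3876, which overlapped. At P310 the mature neuron markers summed to 52.4 to 586, on both sides of the E16 range. Mitochondrial transcripts took 1.52 to 3.54% of the raw counts at E16, 4.44 to 10.4% at P12, 12.8 to 23.5% at P80 and 18.3 to 34.4% at P310. The part of these cells and of RNA quality in the levels of the splicing factors was not tested.

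Between E16 and P12, 30 of the 40 members passed the threshold with lower values at P12 (edgeR quasi-likelihood test, Benjamini-Hochberg adjusted p under 0.05 over 21170 genes) and 0 with higher values. Over all genes tested, 10.5% were called lower and 16.7% higher, 27.2% in either direction. Because the families were proposed with CPM across these ages in view, nothing is read from the members' count against these shares. All 40 fitted differences were negative, from -2.81 to -0.11 on the log2 scale with a median of -1.14, while the median over all genes tested was 0.09. In 37 members no P12 sample reached the lowest E16 sample, which held in one direction or the other for 61.8% of the 21170 genes. Among 10052 coding genes whose mean reached 10 CPM, a group nearer to the members in abundance, 19.1% were called lower and the median was -0.20. In 74.7% of that group the E16 and P12 samples did not overlap. At an unadjusted p under 0.05, 35 members were lower and 0 higher, where 38.1% of all genes were under it in either direction. Of the 30 called members, 18 were called under each of the 20 alternative settings tried. Leaving out P12 replicate 2-3, which leaves P12 with 1 sample, reduced the count to 19.

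**Figure D2:**
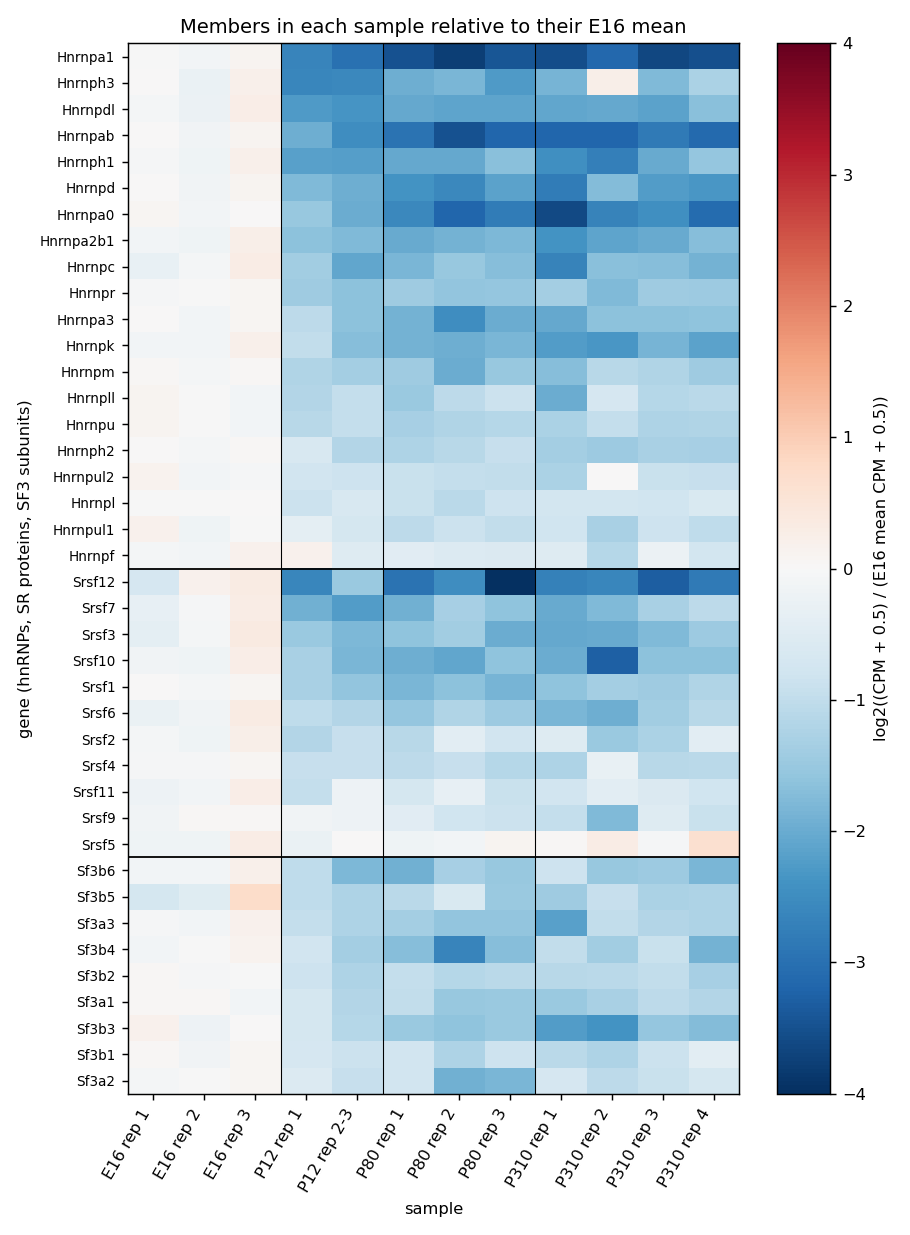
Each member (rows, grouped as hnRNPs, SR proteins and SF3 subunits and ordered by the fitted P12 difference) in each of 12 samples (columns), as log2 of CPM plus 0.5 over the E16 mean plus 0.5. Nearly all cells right of the E16 block are blue (lower), the exceptions being some later samples of Srsf5, the P310 replicate 2 values of Hnrnph3 and Hnrnpul2, and Hnrnpf in P12 replicate 1.

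Among the hnRNPs, 17 of 20 were called lower at P12 than at E16, with a family median of -1.42. Hnrnpa1, an abundant hnRNP that binds exonic and intronic silencers and also regulates microRNA processing, had the largest difference of all members. It stood at 1445, 1355 and 1569 CPM in the E16 samples and at 231 and 185 at P12. At P80 it was at 128, 106 and 136, and at P310 at 124, 166, 115 and 128. It fell by 2.81 on the log2 scale (SE 0.24) (6.99-fold lower at P12), and the highest later sample lay below the lowest E16 sample. Hnrnph3, a smaller relative of hnRNP H, read 130.2, 106 and 149.5 CPM at E16 and 20.5 and 21.1 at P12, a difference of -2.63 (SE 0.56). The P80 samples held 32.9, 35.9 and 26.4 CPM of it, and those of P310 35.0, 150.2, 37.3 and 53.6. P310 replicate 2, the sample with the highest mature oligodendrocyte markers, was thus above the 3 E16 samples, and the other 3 were below them.

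Hnrnpdl, a relative of hnRNP D, was at 436, 385 and 548 CPM at E16 and at 93.9 and 89.0 at P12, and fell by 2.32 (SE 0.24). Its adult samples, at 111, 105 and 106 CPM (P80) and 107, 109.7, 103 and 144 (P310), were above both P12 samples, with P310 replicate 4 the highest. Hnrnpab, which binds AU-rich RNA, was at 884, 788 and 936 CPM at E16 and at 222 and 156 at P12, and fell by 2.20 (SE 0.25). Hnrnph1, which binds runs of G in exons and introns, was at 612, 565 and 730.3 CPM at E16 and at 141 and 138 at P12, and fell by 2.19 (SE 0.32). Its adult samples were at 153, 154 and 199.6 CPM (P80) and at 116, 96.0, 156 and 217 (P310), so that the P310 samples lay on both sides of those of P12. In these 3 genes the E16 and P12 groups did not overlap, and neither did those of Hnrnpd (-1.86, SE 0.28), Hnrnpa0 (-1.73, SE 0.32), Hnrnpa2b1 (-1.70, SE 0.24), Hnrnpc (-1.69, SE 0.32) and Hnrnpr (-1.53, SE 0.21). Hnrnpa2b1, a reader of modified adenosines in RNA and a carrier of mRNA in glial processes, went from 1038 ± 166 CPM to 320.4 ± 21.7. Hnrnpc, which keeps cryptic exons silent by binding uridine tracts, went from 273 ± 59.9 to 84.7 ± 28.3.

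Smaller falls were fitted for Hnrnpa3 (-1.31), Hnrnpk (-1.30), which binds C-rich RNA and DNA, Hnrnpm (-1.28), Hnrnpll (-1.07), Hnrnpu (-1.03), a nuclear scaffold protein, Hnrnph2 (-0.89) and Hnrnpl (-0.75), which binds CA repeats. The 3 hnRNPs that did not pass were Hnrnpul2 (-0.80), Hnrnpul1 (-0.53) and Hnrnpf (-0.14). Hnrnpul2 passed under 6 of the 20 alternatives and Hnrnpul1 under 2. Hnrnpf, a relative of Hnrnph1, was at 205, 201 and 242 CPM at E16, at 242 and 150.4 at P12, at 157, 147 and 146 at P80, and at 150.1, 96.9, 182 and 129 at P310. Its E16 and P12 samples overlapped, and without P12 replicate 2-3 its difference was 0.16. Hnrnpll, a relative of Hnrnpl known from T cell splicing and the lowest of the family per kilobase, was at 91.2, 82.8 and 78.2 CPM at E16, at 37.01 and 42.9 at P12, at 29.7, 40.0 and 45.9 at P80, and at 20.9, 52.8, 38.1 and 39.3 at P310. Its E16 samples were above all later ones, and the later ages overlapped. Of the 17 hnRNPs called lower, 14 were called under every alternative. Hnrnph2, Hnrnpl and Hnrnpll lost the call under 2, 2 and 4 alternatives, with negative differences throughout.

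**Figure D3:**
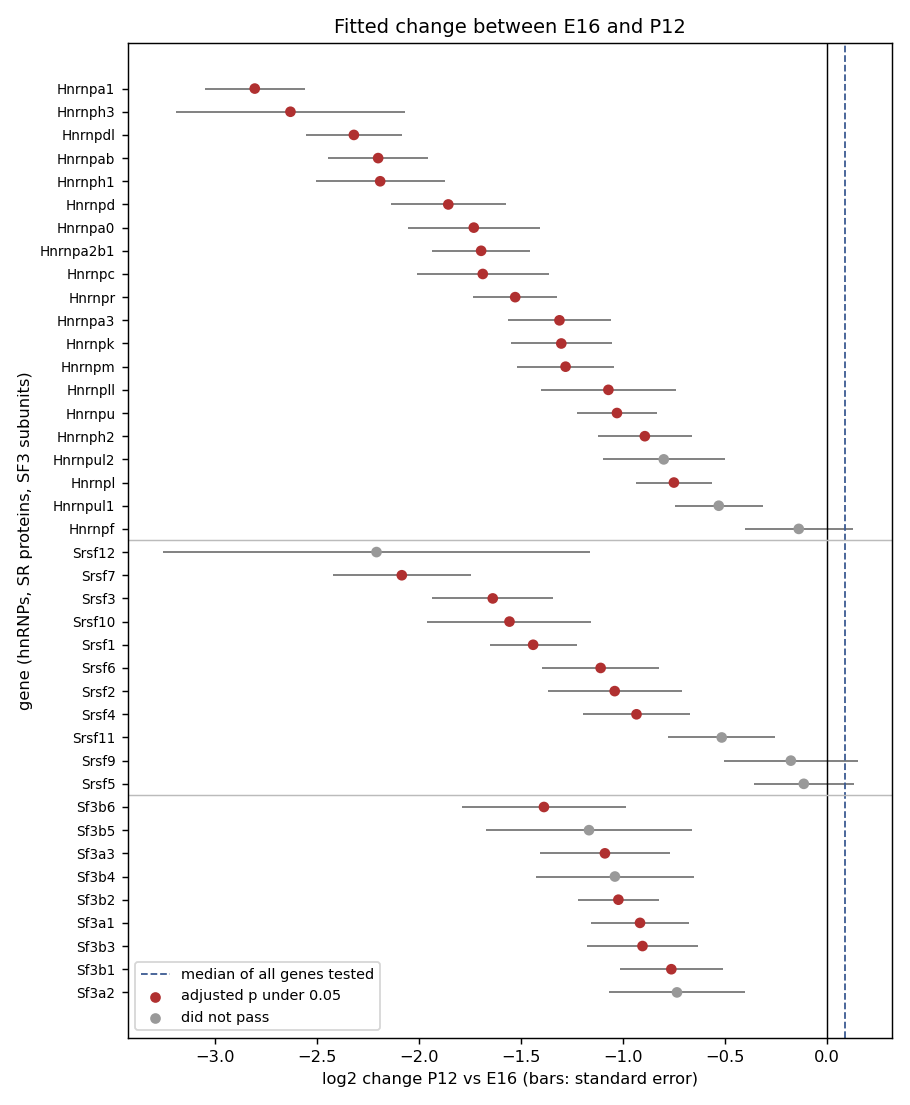
Fitted log2 difference between E16 and P12 for each member (points, with bars of 1 standard error), red where the adjusted p was under 0.05 and grey where it was not, with the median over all genes tested as a dashed line. All 40 points lie below 0, and Srsf5, Hnrnpf and Srsf9 lie nearest to it.

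Of the 11 SR proteins, 7 were called lower at P12 than at E16, and the family median was -1.11. Srsf7, which binds GA-rich exon enhancers and helps export mRNA, had the largest called fall. It stood at 81.4, 97.9 and 125 CPM at E16 and at 26.5 and 21.3 at P12, and fell by 2.09 on the log2 scale (SE 0.34). Its adult samples were at 26.5, 39.7 and 32.9 CPM (P80) and at 24.6, 29.3, 40.7 and 49.1 (P310), all below the lowest E16 sample. Srsf3, the smallest SR protein and an mRNA export adaptor, was at 121, 153 and 206 CPM at E16 and at 57.4 and 45.4 at P12, and fell by 1.64 (SE 0.30). Srsf1, the prototype of the family, went from 204 ± 10.5 to 75.3 ± 10.8 CPM, and fell by 1.44 (SE 0.21). Srsf1, Srsf3 and Srsf7 were called under every alternative. Srsf10 (-1.56, SE 0.40), an SR protein that acts as a repressor when dephosphorylated, and Srsf6 (-1.11, SE 0.29) were called except without P12 replicate 2-3. Srsf2, which binds exon enhancers and has been linked to transcription elongation, was at 147, 138 and 185 CPM at E16, at 69.98 and 82.4 at P12, at 72.1, 116 and 92.4 at P80, and at 109.5, 56.2, 64.4 and 118 at P310. Its E16 samples lay above all later ones, and the later ages overlapped. Srsf2 (-1.04) and Srsf4 (-0.93) were lost under 4 and 2 alternatives. Both also share many exon bases with neighbouring genes, and whether that bears on their calls was not tested.

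Srsf5, Srsf9, Srsf11 and Srsf12 did not pass. Srsf5, which had the highest level per kilobase of its family at the 3 later ages, was at 182, 184 and 254 CPM at E16 and at 172 and 210.2 at P12. It was at 185, 191 and 225 at P80, and at 216, 252, 201 and 325 at P310. All 4 ages overlapped, and the fitted P12 difference of -0.11 (SE 0.24) was 0.06 without E16 replicate 3, 0.03 without P12 replicate 1 and 0.01 when only E16 and P12 were fitted. Srsf9 differed by -0.18 (SE 0.33) and Srsf11 by -0.52 (SE 0.26), the latter by -0.19 without P12 replicate 1 and -0.94 without P12 replicate 2-3. Srsf12, a little-studied SR protein, was the least abundant member of the family, at 4.75, 8.87 and 9.97 CPM at E16 and 0.87 and 2.48 at P12. Its P80 samples held 0.57, 0.99 and 0 CPM, the last of which allows up to 0.21, and its P310 samples 0.79, 0.88, 0.36 and 0.68. Its fitted difference of -2.21 had an SE of 1.05, and it passed in DESeq2 and when only E16 and P12 were fitted.

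**Figure D4:**
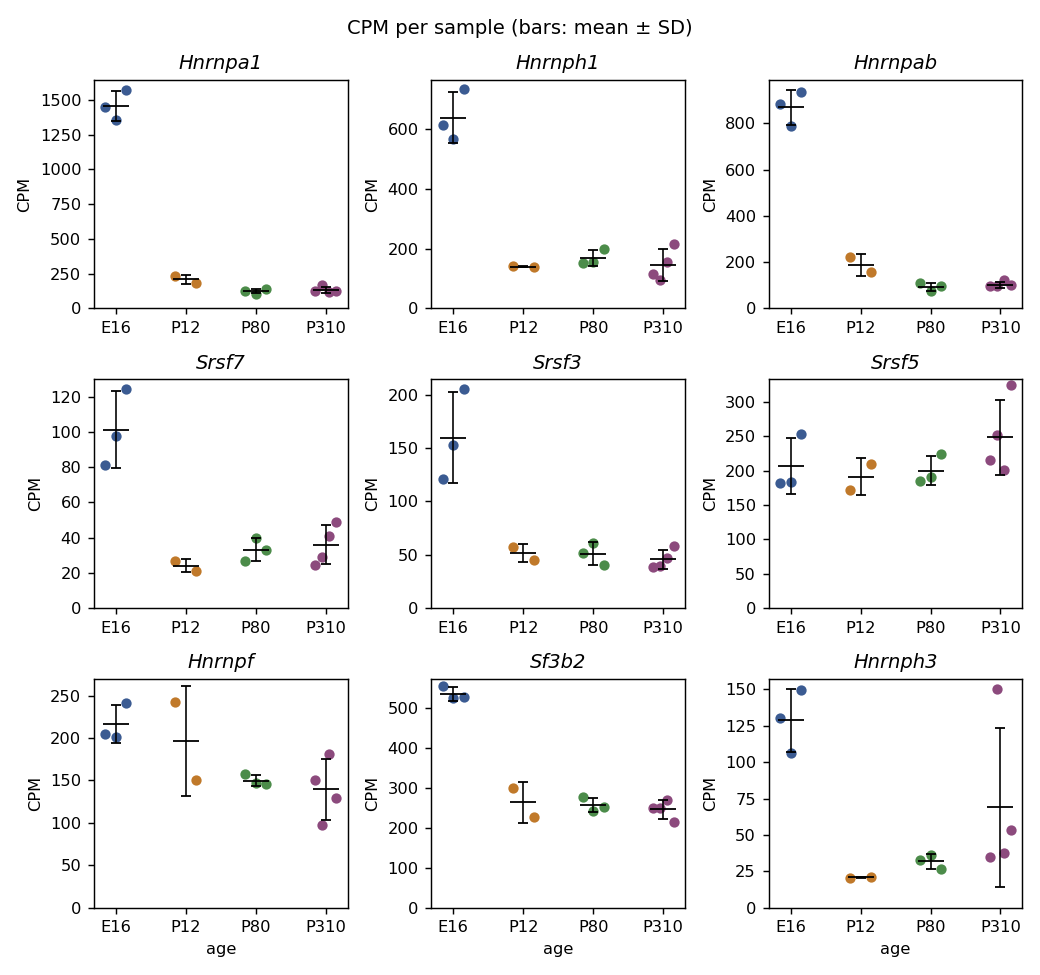
CPM of 9 members in each sample by age (points), with the mean and SD as bars (n = 3, 2, 3 and 4 at E16, P12, P80 and P310). Hnrnpa1, Hnrnph1, Hnrnpab, Srsf7, Srsf3 and Sf3b2 have their E16 samples above all later ones, Srsf5 and Hnrnpf have overlapping ages, and Hnrnph3 has 1 P310 sample above those of E16.

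The SF3 subunits had the narrowest spread of differences, from -1.39 to -0.74 with a median of -1.02. Of the 9, 6 were called lower at P12 than at E16. Sf3b2, which contacts the pre-mRNA near the branch point, was at 556, 524 and 527 CPM at E16 and at 299 and 228 at P12, and fell by 1.02 (SE 0.20). Its P80 samples were at 276, 242 and 252 CPM and its P310 samples at 250.1, 250.7, 269 and 214, within or below the P12 range. It was the single SF3 member called under every alternative. Sf3b1, the large scaffold subunit that encloses the branch point adenosine, was at 327, 283 and 332 CPM at E16 and at 195 and 174 at P12. Its P80 samples were at 185, 134 and 177 CPM and its P310 samples at 149, 133, 172 and 234, all below those of E16, with P310 replicate 4 the highest of the later ones. It fell by 0.76 (SE 0.25), with no overlap, and the call was lost under 6 of the 20 alternatives. The other calls were Sf3b6 (-1.39, SE 0.40), which binds inside Sf3b1 at the branch point, Sf3a3 (-1.09), Sf3a1 (-0.92) and Sf3b3 (-0.90). Sf3a1, the largest subunit of SF3a, was at 215, 213 and 193 CPM at E16, at 127 and 92.4 at P12, at 105, 72.8 and 74.4 at P80, and at 73.3, 83.0, 99.0 and 91.0 at P310. Sf3b5 (-1.17, SE 0.51), Sf3b4 (-1.04, SE 0.39) and Sf3a2 (-0.74, SE 0.33) did not pass, and each passed under at least 1 alternative. Sf3b5, the least abundant subunit per kilobase, was at 9.93, 11.6 and 28.2 CPM at E16 and at 8.02 and 6.74 at P12. Its adult samples were at 7.54, 10.75 and 5.56 CPM (P80) and at 5.94, 8.47, 6.60 and 6.72 (P310), so that 1 of them lay within the E16 range. E16 replicate 3 held the highest value, and without it the P12 difference was -0.55. Sf3b4, whose age means had the widest range in the family, was at 41.5, 44.6 and 49.8 CPM at E16 and at 26.6 and 17.5 at P12. Its P80 samples were at 13.7, 6.92 and 13.7, and its P310 samples at 22.8, 17.2, 24.3 and 11.9.

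Between P12 and P80, 1 member was called lower (Hnrnpab) and 0 higher. Over all genes tested 1.02% were called lower, 0.406% higher and 1.42% in either direction. Hnrnpab went from 222 and 156 CPM at P12 to 111, 77.0 and 95.7 at P80, and fell by 0.999 (SE 0.22) with no overlap, and it was at 95.3, 95.7, 122 and 99.6 at P310. That call was lost under 10 of the 20 alternatives, over which the difference ranged from -1.24 to -0.73. Hnrnpa0, a single-exon member of the A/B group, had a difference of -1.10 (SE 0.30) and did not pass, with 119 and 84.2 CPM at P12 and 56.4, 36.6 and 48.3 at P80. It passed under 2 alternatives. Hnrnpa1 differed by -0.75 (SE 0.21) and passed in DESeq2 alone. The median over members was -0.21, against -0.03 over all genes tested, with 31 negative and 9 positive differences. At an unadjusted p under 0.05, 7 members were lower and 0 higher, where 9.75% of all genes were under it in either direction.

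Between P80 and P310, 0 members passed in either direction in edgeR, as did 0% of all genes tested, and 0% higher and 0% lower. At an unadjusted p under 0.05, 3 members were higher and 0 lower, against 5.49% of all genes. DESeq2 called 0 members as well, and 14 genes higher and 14 lower over all genes. The median over members was 0.05 and that over all genes 0.03. Srsf1 (59.2 ± 4.88 CPM at P80 and 77.1 ± 9.14 at P310), Hnrnph2 (43.1 ± 4.92 and 35.6 ± 1.60) and Hnrnpl (118 ± 10.7 and 136 ± 7.67) were the 3 members whose groups did not overlap, 7.5% of the 40, against 4.86% of all genes (1029 of 21170). Hnrnph3 had the largest difference, 1.12 (SE 0.44). It rests on P310 replicate 2, and the difference ranged from 0.40 to 1.34 over the alternatives, of which the fit without a filter on low counts called it.

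Compared per kilobase of exon, the members were among the more abundant coding transcripts at every age. Their median percentile among 16514 coding genes tested was 95.5 at E16, 90.6 at P12, 88.9 at P80 and 89.4 at P310, and 33, 21, 19 and 19 of the 40 were at or above the 90th. The order of the levels differed between ages. At E16 Hnrnpa1 had the highest mean of the members, at 462 CPM per kilobase, ahead of Hnrnpab at 313 and Sf3b2 at 166. Sf3b2 had the highest mean at the later ages, at 81.6 (P12), 79.4 (P80) and 76.1 (P310) CPM per kilobase, where Hnrnpa1 was at 66.1, 39.2 and 42.2. Among SR proteins Srsf2 and Srsf5 were level at E16, at 53.0 and 51.8 CPM per kilobase. Srsf5 had the highest mean of its family later, at 47.9, 50.1 and 62.3, against 25.8, 31.7 and 29.4 for Srsf2. At the low end, as means over all 12 samples, were Hnrnpll (4.27), Sf3b5 (2.52) and Srsf12 (0.83).

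The shares that single members held of their family are given next. As a share of the summed CPM per kilobase of the hnRNPs, Hnrnpa1 made up 22.5% ± 0.258 at E16 and 10.5% ± 0.131 at P12, 8.22% ± 0.593 at P80 and 8.55% ± 1.24 at P310. Hnrnpab made up 15.2% ± 0.354, 10.7% ± 0.857, 7.12% ± 1.01 and 7.53% ± 0.947. Hnrnpf, with its fitted difference of -0.14, made up 3.45% ± 0.124 at E16 and 10.05% ± 1.67, 10.3% ± 0.634 and 9.38% ± 2.75 later. Within the SR proteins, Srsf5 went from 13.99% ± 0.654 at E16 to 24.7% ± 2.59 at P12, 26.7% ± 3.49 at P80 and 30.9% ± 3.16 at P310. Srsf7 made up 11.98% ± 0.967 at E16 and 5.43% ± 1.04, 7.63% ± 0.892 and 7.78% ± 1.74 later. For SF3, Sf3b2 held 50.4% ± 1.80, 48.8% ± 0.0577, 56.1% ± 2.26 and 51.5% ± 3.32, and its P12 samples lay inside its E16 range, which the P310 range overlapped. These shares carry n = 3, 2, 3 and 4 samples.

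Ratios of relatives within a sample do not depend on how libraries were scaled. Of 13 pairs computed, 8 had their E16 samples apart from all later ones and 5 did not. The pairs were set by hand, and some join a member with a large difference between ages and one with a small difference. No such share was computed over other pairs of genes, so nothing is read from this count. The log2 ratio of Hnrnpa1 to Hnrnpa3 (per kilobase) was 2.27, 2.29 and 2.32 in the E16 samples and lay between 0.28 and 1.01 in the 9 later ones. That of Hnrnph1 to Hnrnpf was 0.64, 0.55 and 0.66 at E16 and between -1.72 and -0.19 later, so that Hnrnpf was the higher of the pair in every later sample. Srsf6 to Srsf5 gave -0.62, -0.52 and -0.50 at E16 and -2.81 to -1.31 later. In these 3 pairs no later sample reached the E16 range, nor in Hnrnpa1 to Hnrnpa2b1 (1.41 to 1.66 against -0.35 to 0.54) or Hnrnph1 to Hnrnph2 (2.27 to 2.53 against 0.85 to 2.15). Srsf4 to Srsf5, Srsf10 to Srsf11 and Hnrnpab to Hnrnpd were the other pairs of this kind. Srsf7 to Srsf3 was 0.44 to 0.59 at E16, 0.05 and 0.07 at P12, and 0.19 to 0.96 in adults, so the adult samples overlapped those of E16. Hnrnpdl to Hnrnpd likewise overlapped, with 0.82 to 1.09 at E16 and 0.41 to 1.64 later, as did Srsf1 to Srsf9, Hnrnpll to Hnrnpl and Hnrnpu to Hnrnpul1.

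**Figure D5:**
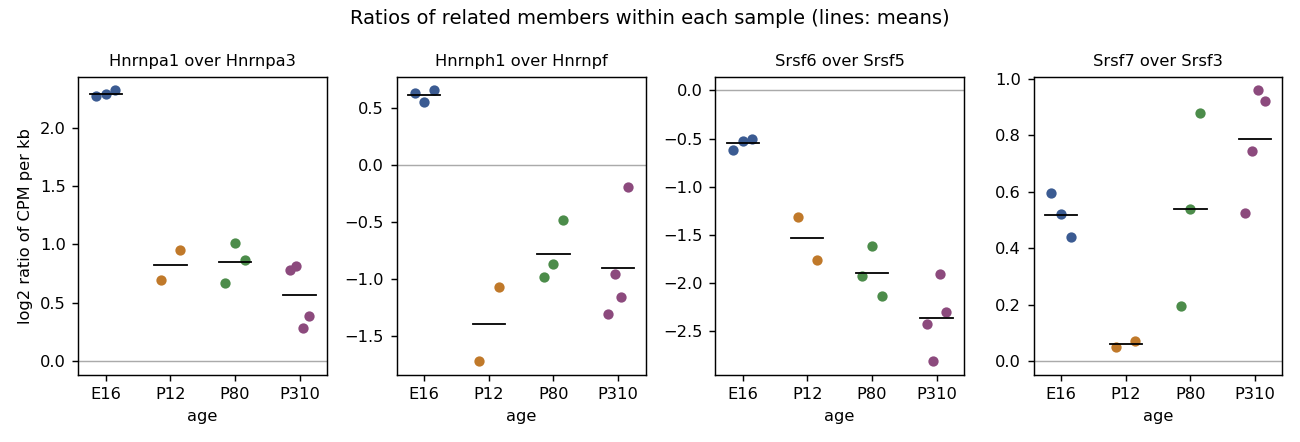
Log2 ratio of CPM per kilobase of 4 pairs of related members in each sample by age (points, with lines at the age means). The E16 samples stand apart from all later samples in the first 3 pairs, and overlap the adult samples for Srsf7 over Srsf3.

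Other genes of the splicing machinery were taken from 9 lists, chosen with earlier results of these data known. Their counts and adjusted p-values describe the listed genes and support nothing beyond that. The genes named are mostly those with the largest called differences. The fit of E16 against P12 is the same one, in which 10.5% of all genes tested were called lower and 16.7% higher. Among coding genes whose mean reached 10 CPM, 19.1% were called lower, and the share called in some lists is near these. In the main fit no gene of these lists passed at the 2 later steps. Under some alternatives, cell-type regulators passed at both of these steps, and the U1 and Sm list had a call between P80 and P310. Of 9 kinases that phosphorylate SR proteins, 3 were called lower at P12 and 1 higher (median difference of the list -0.41). The number called lower ranged from 0 to 4 over the alternatives. Dyrk1a (127 ± 20.1 to 68.3 ± 7.07 CPM, adjusted p = 0.0152), Srpk1 (98.3 ± 1.34 to 52.8 ± 7.85, adjusted p = 0.0302) and Srpk2 (113 ± 14.4 to 67.5 ± 10.4, adjusted p = 0.0293) were lower. These calls were lost under 3 (Dyrk1a), 6 (Srpk1) and 6 (Srpk2) of the 20 alternatives. Srpk3, the muscle-associated kinase of this group, was higher, at 0.53 ± 0.16 CPM at E16 and 4.19 ± 1.70 at P12 (log2 difference 2.96, SE 0.82, adjusted p = 0.0143), and lost its call without E16 replicate 3 or P12 replicate 2-3. Of 18 SR-related proteins and coactivators, 6 were called lower and 0 higher (median -0.42). Srrm4, which promotes neuronal microexons, went from 217 ± 38.8 to 13.3 ± 14.2 CPM (log2 difference -4.01, adjusted p = 0.0122). Its P12 samples, replicate 1 and replicate 2-3, were at 3.30 and 23.3 CPM, and the difference was -3.22 without the former and -6.04 without the latter. Tra2a, Tra2b and Rnps1 had differences of -1.64, -1.44 and -1.81.

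Among 21 relatives of the hnRNPs under other symbols, 15 were called lower at P12 and 1 higher, with a median of -1.10. Over all genes tested the shares were 10.5% and 16.7%. The number called lower ranged from 9 to 17 over the alternatives. Ptbp2, the neuronal form of the polypyrimidine tract binding protein, went from 193 ± 2.19 to 19.8 ± 2.21 CPM (log2 difference -3.29, adjusted p = 0.000333), and Ptbp3, a paralog found in blood cells and other tissues, from 21.96 ± 5.12 to 82.8 ± 17.6 (1.91, adjusted p = 0.000237). Both calls stood under all 20 alternatives. Matr3 went from 454 ± 4.40 to 117 ± 23.6 CPM (-1.96) and Rbmx, also known as hnRNP G, from 169 ± 17.3 to 35.4 ± 0.787 (-2.26). Pcbp4 differed by -2.31.

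Some genes of the spliceosome core were called lower at P12, as were 10.5% of all genes tested and 19.1% of coding genes whose mean reached 10 CPM. Of 16 U2 and branch site factors outside SF3, 9 were called lower (median -1.05). Among them were U2af1, the reader of the 3′ splice site AG (60.9 ± 23.2 to 18.6 ± 0.505 CPM, adjusted p = 0.00947), Snrpa1, U2af1l4 and the helicase Dhx15. Of 16 U1 and Sm proteins, 8 were called lower (median -1.52), with Snrpd1, Snrpf and Snrpd3 of the Sm ring at -2.21, -2.01 and -1.89 and Snrpa of U1 at -1.77. Of 22 tested tri-snRNP proteins, 8 were called lower (median -1.08), including Lsm3 (-1.89), Lsm7 (-1.31), Snu13 (-1.28) and Snrnp40 (-1.26). Of 23 genes of the Prp19 complex and the catalytic steps, 7 were called lower (median -0.65), including Bcas2 (-1.29), Prpf19 (-1.27), Cdc5l (-1.13) and Crnkl1 (-0.94). Of 15 exon junction and decay factors, 3 were called lower (median -0.50): Rbm8a (-1.53), Magoh (-1.45) and Upf3b (-0.95). None of these 5 lists had a gene called higher. Of the genes named here, Dhx15, Snrpd1, Snrpf and Snrpa kept their calls under all 20 alternatives. Without P12 replicate 2-3, Lsm3, Lsm7, Magoh, Snu13, Snrpa1, Bcas2, Prpf19, Cdc5l, Crnkl1, Snrnp40, Snrpd3, U2af1 and Rbm8a were not called, and without P12 replicate 1, U2af1l4, Upf3b, Lsm7, Crnkl1, Snrnp40, Snrpd3, U2af1 and Rbm8a were not. Without E16 replicate 3, Snrpa1, U2af1l4, Snrpd3, Lsm3, Snu13, Snrnp40, Bcas2, Crnkl1, Magoh and Upf3b were not called, nor was Lsm7, at -0.80. Without P12 replicate 1, Bcas2 was at -1.88 and Snrpd3 at -2.55. U2af1l4 was at -0.86 without P12 replicate 1 and at -2.08 without P12 replicate 2-3. The counts called lower ranged over the alternatives from 4 to 13 for U2, 5 to 12 for U1 and Sm, 0 to 14 for the tri-snRNP, 0 to 10 for Prp19 and 1 to 4 for the exon junction list.

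Of 28 regulators known for cell-type splicing, 12 were called lower at P12 and 3 higher (median -1.85), where 10.5% and 16.7% of all genes were. Over the alternatives 10 to 19 were called lower and 2 to 4 higher. Elavl2 (101 ± 10.2 to 2.72 ± 1.29 CPM, log2 difference -5.19, adjusted p = 0.00285), Elavl4 (-4.51) and Khdrbs2 (-2.99) are known from neurons, and Elavl3 of this list is also an immature neuron marker. Msi1, an RNA binding protein of neural progenitors, went from 273 ± 25.1 to 29.0 ± 3.50 CPM (-3.24). The 3 called higher were Mbnl2 (17.9 ± 1.08 to 131 ± 20.1 CPM, 2.86, adjusted p = 1.08e-07), Mbnl1 (30.3 ± 3.98 to 140.0 ± 5.67, 2.21, adjusted p = 2.3e-06) and Rbm47 (4.55 ± 1.62 to 15.3 ± 9.19, 1.75, adjusted p = 0.0154). Muscleblind proteins Mbnl1 and Mbnl2 are known to set postnatal splicing patterns and kept their calls under all 20 alternatives, and Rbm47 lost its call without E16 replicate 3 and without P12 replicate 1, where its difference was 0.96. Khdrbs2 lost its call under the same settings, at -2.28 without P12 replicate 1, and its difference was -4.57 without P12 replicate 2-3. Elavl4 lost its call without either P12 sample. The sum of the immature neuron markers was over the same samples 6744 CPM or more at E16 and 332 or less at P12, and its part in these differences was not tested.

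Reads were counted for each gene they overlapped, for each place they mapped and without strand, so some members share counts with other genes. Of the exon bases of Srsf4, 43.0% lie under Gm12992, and 29.1% of those of Hnrnpab under Phykpl, 25.3% of Srsf2 under Mettl23 and Mfsd11, 24.9% of Hnrnpm under March2, and 16.1% of Sf3a2 under Plekhj1. Of all 50-base words in the transcripts of Hnrnpa3, 26.2% also occur in other counted genes, mostly Gm5641, and of Hnrnpf 28.2%, mostly Gm47882. These are shares of bases and words and not of counts. How far the values of these 7 members are affected was not measured. For Hnrnpa1 the share of such words was 1.5%, and for Srsf7 and Hnrnpdl it was 0%. Copies that the counted annotation does not list are outside this measure.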

How the data were processed

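The authors deposited raw counts per gene. Per the file headers, featureCounts 1.5.0-p1 made them on Ensembl GRCm38 release 92 exons, ignoring strand and crediting multi-mapping reads, and reads over several genes, to each gene they overlapped by 10 bases or more. Trim Galore and TopHat2 2.1.1 are named in the submitters' processing notes. The library kit was a stranded low-input total RNA kit, per the labels' protocols. Depth was 8669521 to 25810455 counts per library. A gene without a count may have up to 3. That limit is for counting error alone, as PCR duplicates are no separate molecules.

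The titles give each sample's age group and number the mice. Symbols came from GENCODE M21 for 37715 of 37785 genes, and 70 kept their identifier. P12 replicates 2 and 3 were summed into 1 sample. Counts filtered by filterByExpr and scaled by TMM were fitted with a mean per age over 12 samples (edgeR 4.0.16 under R 4.3.3, glmQLFTest with robust fitting, common biological coefficient of variation 0.513), with Benjamini-Hochberg adjustment over 21170 genes and a threshold of 0.05. A standard error is the log2 difference over the square root of F. No p-value is printed for a member, because CPM across these ages was in view when the families were proposed. The members, the 9 lists of other splicing genes and the 11 marker lists were chosen with earlier results of these data known. Values in every sample are given for the 6 largest called differences per comparison, and per family for the 2 highest and the lowest members per kilobase and those with the widest and narrowest range of age means, and other members were named freely. From each other list, up to 4 called genes with the largest differences and any called against the list are named. CPM per kilobase uses the exon length in the files. Promoters are those of RefSeq on GRCm38.p6, matched by symbol. Alternatives were RLE size factors, no filter and a filter of 1 CPM in 3 samples, DESeq2 1.42.0, the 2 ages alone, a replicate block, counts without mitochondrial, ribosomal protein and haemoglobin genes, P12 replicates 2 and 3 apart, CPM of raw totals and leaving out each replicate. Python 3.11.15, numpy 2.4.6, pandas 2.3.3 and matplotlib 3.10.9 were used for tables and figures.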

Additional observations from a re-analysis of the deposited data

Results flagged for a closer look

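In 4 of the 40 members, 1 of the 4 P310 samples lay so far from the other 3 that its gap to the nearest, divided by the whole range, exceeded Dixon's 95% critical value for 4 samples. Chance gives such a gap in about 1 in 20 groups. Hnrnph3 was at 150.2 CPM and Srsf4 at 137.1 CPM in P310 replicate 2, each the highest of the 4. That sample also held the highest sum of mature oligodendrocyte markers, 67210 CPM. Hnrnpab was at 122.0 CPM in P310 replicate 3, the highest, and Hnrnpa3 at 123.0 CPM in P310 replicate 1, the lowest.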

How the results depend on the processing

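Among 20 alternatives, 12 of them leaving out 1 sample, the number of members lower at P12 than at E16 ranged from 19 to 32 in the latter, with 19 without P12 replicate 2-3. Their median ranged from -1.32 to -1.05 when a sample was left out and was -1.01 with only the 2 ages, and the median of all genes tested was 0.27 without a filter and 0.0563 with the stricter one, and -0.14 to 0.17 with a sample left out. Between P12 and P80 the count of members called lower was 0 with RLE size factors and with the 2 ages alone, 2 without a filter and in DESeq2, and 0 to 2 with a sample left out. There the members' median ranged from -0.39 to -0.15 with a sample left out, and that of all genes from -0.0666 to 0.0687. It was 0.0057 with RLE, -0.12 without a filter, 0.0063 in DESeq2, 0.0154 without mitochondrial, ribosomal protein and haemoglobin genes and 0.024 with the 2 ages alone. Between P80 and P310, 1 member (Hnrnph3) was higher without a filter, where the median of all genes was 0, and that median ranged from -0.00621 to 0.0614 with a sample left out. Without the mitochondrial, ribosomal protein and haemoglobin genes the family sums at E16, P12, P80 and P310 were 1841, 963, 953 and 1008 CPM for SR proteins, 11670, 3986, 3258 and 3321 for hnRNPs and 1736, 911, 793 and 795 for SF3. As CPM of raw totals they were 883 (P12) and 722 (P310) for SR proteins, 11080 (E16) and 2359 (P310) for hnRNPs and 1647 (E16) and 571 (P310) for SF3. With a sample left out the sums ranged over 1410 to 1633, 775 to 840, 737 to 804 and 777 to 854 for SR proteins, 9409 to 10190, 3029 to 3668, 2588 to 2714 and 2664 to 2843 for hnRNPs, and 1440 to 1498, 671 to 860, 607 to 679 and 633 to 668 for SF3. Over all genes, 2222 were called lower at P12 than at E16, against 1096 without P12 replicate 2-3 and 3349 with P12 replicates 2 and 3 apart, and between P80 and P310 the fit without a filter called 298 higher and 125 lower where the filtered one called 0. Reversed signs were those of Srsf5 at P12 (-0.269 to 0.0592 with a sample left out, where it was 0.0592 without E16 replicate 3 and 0.0256 without P12 replicate 1, and 0.00504 with 2 ages) and of Hnrnpf (-0.521 to 0.163, the latter without P12 replicate 2-3). The causes were not tested. Leaving a sample out also leaves fewer samples in the fit, and at P12 a single one.

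The main fit did not use the replicate numbers. Deviations of same-numbered samples had correlations from -0.0926 to 0.215, and those of differently numbered samples from -0.266 to 0.266. With n = 2 at P12 the deviations of its samples mirror each other. These values therefore cannot settle whether same-numbered samples share more than a number. With the replicate block 29 members were lower at P12 than at E16 (median -1.05) and 1 at P80 than at P12. The sample numbers and the n = 2 at P12 limit precision, and genes at under 10 CPM, such as Srsf12, are limited by depth.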
